A study of Mus musculus with 6 samples.

Results

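Collagens are the triple-helical proteins that fibroblasts secrete into the stroma of a tumour. Their genes were followed in cancer-associated fibroblasts treated with decitabine (5-aza-2'-deoxycytidine, here DAC), a drug that replicating cells incorporate in place of deoxycytidine and that depletes the enzymes of DNA methylation. All probes of the Illumina bead arrays whose target name began with COL, a number, A and a number were taken, which gave 92 of 45281 probes under 41 of 30854 target names. Of these names, COL4A3BP is not a collagen: its current name is Cert1, a ceramide transfer protein, and its 4 probes were set aside. The other 88 probes stood for 40 collagen chains, 11 of them fibrillar, 6 of the basement membrane type IV, 9 fibril-associated (FACIT) and 14 of other types. Probes named for Col6a4, Col6a5, Col6a6 and Col26a1 through older symbols lay outside this choice, and none of these 5 probes was detected on any array.

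The cells came from a single short-term explant of a pancreatic carcinoma of a KPC-Brca1 mouse. The labels do not spell out the alleles behind the name KPC-Brca1, and the age of the animal is not given in the sources used here. Plates of this culture received either no drug (3 untreated arrays) or 2 micromolar DAC for 48 hours (3 DAC arrays). All 6 arrays thus share 1 tumour, 1 animal and 1 culture, so that each p-value weighs the change against plate-to-plate spread alone, and the small number of plates limits the precision.

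A collagen molecule is a helix of 3 alpha chains, each a run of glycine-led triplets. Fibrillar collagens (types I, II, III, V, XI, XXIV and XXVII) form the cables that bear tension, and type V and XI chains set how thick these grow. Type IV collagen is the net that underlies epithelia and vessels. FACIT collagens sit on the surface of fibrils, type VI forms beaded filaments around cells, and type VIII builds short-chain lattices. Fibroblasts activated by a pancreatic tumour are a main source of the type I and III collagen of its dense stroma.

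DAC moved individual collagen chains in both directions rather than the family as a block. Of the 40 chains, 25 passed the detection filter (a probe with detection p under 0.01 on at least 3 arrays) and were tested within a fit across 11518 genes with limma, at a Benjamini-Hochberg adjusted p under 0.05. Of these 25, 8 fell, 5 rose and 12 did not pass the test. Across all genes tested, 14.6% were called lower and 14.8% higher, 29.5% in all. The median log2 change of the 25 chains was −0.10, beside 0.00283 over all genes, and the range ran from −1.22 (Col8a2) to 1.21 (Col9a3). Of the 25, Col8a2 and Col9a3 reached a 2-fold difference, which 2.87% of all genes did. The size of change of dim genes depended on the background step. Without background correction the log2 change was −0.79 for Col8a2, 0.78 for Col9a3, −0.495 for Col11a1, −0.42 for Col24a1 and 0.41 for Col20a1, each still called, and Col4a6 (−0.80) then lay lowest; an offset of 50 gave close values. Without normalization Col4a6 (−1.15) and Col11a1 (−1.02) passed 2-fold as well. The untreated and DAC arrays did not overlap in 13 of the 25 chains, the called ones, and in 42.8% of all genes tested. Col24a1, called lower, was tested only because of its untreated arrays. Col11a1, also called lower, was detected on 3 untreated and 2 DAC arrays. Among the 23 chains detected on all 6 arrays, 6 were called lower and 5 higher.

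These counts depended on how the arrays were scaled to each other. Without between-array normalization, 10 chains were called lower and 4 higher, while over all genes the share of calls that were higher dropped from 50.3% to 26.5% and the median change lay at −0.111. With scaling to a common 75th percentile, 7 were called lower and 7 higher, and 63.3% of all calls were higher. The count of rising chains was 3 without DAC replicate 3, 3 without untreated replicate 3, and 3 without the filter on dim probes. Over all genes 11.2%, 11.9% and 5.3% were called higher in these settings. With no filter, 40 chains and 28711 genes were tested. Without that filter Col9a3 and Col18a1 were still called, and the remaining call was Col22a1 (log2 change 0.44, adjusted p = 0.00637, limma), which was detected on no array.

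**Figure D1:**
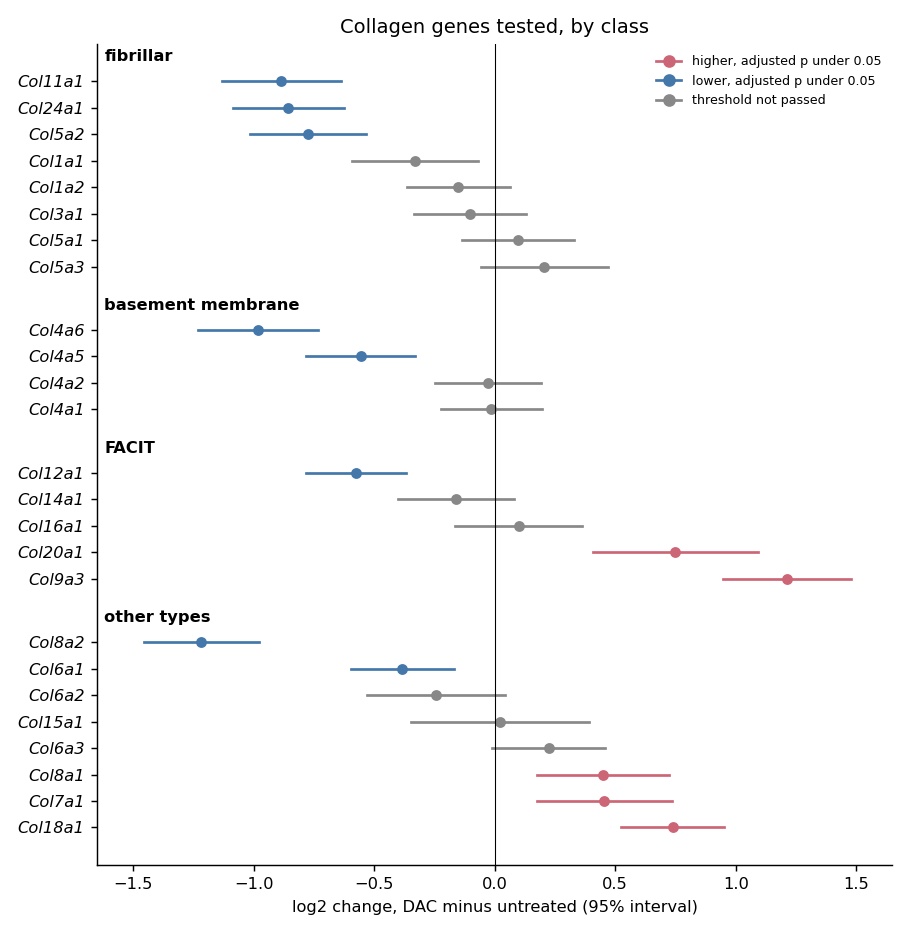
Log2 change (DAC minus untreated, limma) of the 25 collagen genes tested, by class; points are fitted changes and bars their 95% intervals. Red genes rose, blue genes fell and grey genes did not pass the adjusted threshold; the extremes are Col8a2 at −1.22 and Col9a3 at 1.21.

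Among fibrillar collagens, 3 of the 8 tested chains fell and none rose; over all genes 14.6% were called lower. Col24a1 was tested only through its untreated arrays and could hardly be called in the other direction. Col11a1 was detected on 3 untreated and 2 DAC arrays, and its DAC arrays alone would not have met the filter. It stayed called lower with any 1 untreated array left out. There it met the filter only with the help of the remaining untreated arrays, so this is no independent support. Of the 6 fibrillar chains detected on all 6 arrays, Col5a2 alone fell. The chains of types I and III did not pass the test, and neither did the type V chains Col5a1 and Col5a3. Col5a2 encodes the second chain of type V collagen, which is built into type I fibrils and limits their width. Its log2 intensity was 8.73, 8.65 and 8.49 on the untreated arrays and 7.87, 7.67 and 8.01 on the DAC arrays, 1.71-fold lower with DAC (log2 change −0.78 ± 0.11 SE, adjusted p = 0.000105, limma). Every DAC array lay below every untreated array. A further probe of Col5a2 was lower too (log2 change −0.85, adjusted p = 0.000111 over all probes), while a dim probe, detected on 2 of 3 DAC arrays, stood at −0.10 (adjusted p = 0.601). Over all kept probes, 27.7% were called.

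Col11a1, a chain of the cartilage-type fibril that also marks activated tumour fibroblasts in human carcinomas, stood at 6.09, 5.81 and 6.11 untreated and at 5.27, 4.97 and 5.12 with DAC. The fitted log2 change was −0.89 ± 0.11 (SE; adjusted p = 3.83e-05, limma), and the probe was detected on 3 untreated and 2 DAC arrays. The DAC arrays thus lay close to the lowest detected signals (4.99 to 5.05 on those arrays), which limits how far the fall could be read. Since Col11a1 met the filter only with the help of its untreated arrays, its p is no independent support for a fall.

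Col24a1, a fibrillar chain known from developing bone, was the sole collagen detected in 1 group alone. Its brightest probe read 5.62, 5.33 and 5.39 on the untreated arrays, each detected, and 4.55, 4.52 and 4.71 on the DAC arrays, none detected (adjusted p = 2.89e-05, limma). Since the gene entered the fit only through its untreated arrays, this p is no support for a fall, and the gene left the test whenever an untreated array was left out. Set against the lowest detected signal of each DAC array, the gene was at least 1.35-fold lower with DAC. A further probe showed the same pattern, at least 1.22-fold lower, and of 16883 kept probes 0.249% were detected on every untreated array and no DAC array (detection p over 0.05 there). By the same rule no collagen probe was detected only with DAC, as 0.409% of kept probes were.

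The chains that make up most of the fibre did not pass the test, Col1a1 only narrowly. Col1a1, the major chain of type I collagen, read 13.66, 13.87 and 13.87 untreated and 13.23, 13.48 and 13.69 with DAC. The highest DAC array overlapped the lowest untreated one, and the log2 change of −0.33 (95% interval −0.59 to −0.07) missed the threshold at an adjusted p of 0.0534 (limma). Over the alternatives its adjusted p ran from 0.0161 to 0.33, and 7 of 15 settings called it lower, among them the fits without DAC replicate 3 (log2 change −0.46, adjusted p = 0.0187) and without untreated replicate 1 (−0.40, adjusted p = 0.0404). Without DAC replicate 1 the change was −0.21 (adjusted p = 0.242), and with 75th percentile scaling −0.16 (adjusted p = 0.33). This probe was brighter than 99.7% of probes on every array. Col1a2, the partner chain of Col1a1 in the type I helix, had a log2 change of −0.15 (interval −0.37 to 0.06). Its only probe was far dimmer than that of Col1a1, at means of 7.41 untreated and 7.26 with DAC. Col3a1, the chain of type III collagen, had a log2 change of −0.10 (interval −0.33 to 0.13), at means of 8.28 and 8.18. A dimmer Col3a1 probe gave −0.25 (adjusted p = 0.498 over all probes, limma). How well these dimmer probes report their transcripts was not tested. For the type V chains Col5a1 and Col5a3 the changes were 0.10 and 0.21, with intervals from −0.13 to 0.33 and from −0.06 to 0.47. With 75th percentile scaling Col5a1 was called higher (log2 change 0.35, adjusted p = 0.0173), and without normalization Col1a2 was called lower (−0.31, adjusted p = 0.0415). Of the 3 fibrillar chains not tested, the cartilage chain Col2a1 was detected on no array, Col11a2 on 1 and Col27a1 on 2.

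**Figure D2:**
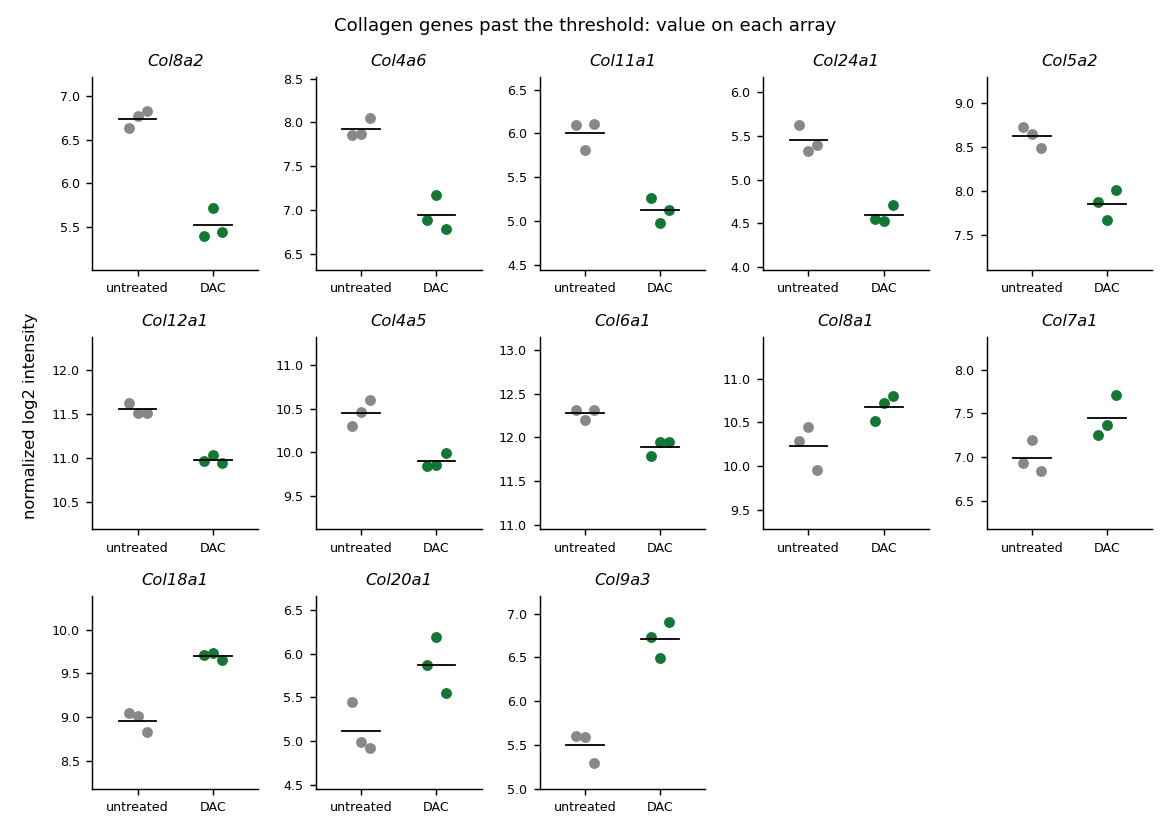
Normalized log2 intensity of the 13 called collagen genes on each array, ordered by log2 change; each point is 1 array (3 untreated in grey, 3 DAC in green), the line is the group mean, and all panels span the same height. In every panel the groups do not overlap.

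Type IV collagen split by gene pair. Its chains are encoded head to head, in pairs that point away from each other: Col4a1 with Col4a2, the chains of nearly all basement membranes, Col4a3 with Col4a4, and Col4a5 with Col4a6 on the X chromosome. Col4a5 and Col4a6 fell, Col4a1 and Col4a2 did not pass the test, and the probes of Col4a3 and Col4a4, chains known from kidney and lung, were detected on no array. Thus 2 of 4 tested chains fell, beside 14.6% of all genes.

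Col4a6 read 7.86, 7.87 and 8.05 untreated and 6.88, 7.17 and 6.78 with DAC, 1.97-fold lower (log2 change −0.98 ± 0.12 SE, adjusted p = 1.67e-05, limma). Its other detected probe fell by 0.77 on the log2 scale (adjusted p = 0.000276 over all probes), so both placed every DAC array below every untreated one. Col4a5 read 10.31, 10.46 and 10.60 untreated and 9.85, 9.85 and 9.99 with DAC, 1.47-fold lower (log2 change −0.56 ± 0.11 SE, adjusted p = 0.00111, limma). Its other probe did not pass the test, at 10.15, 10.07 and 10.09 against 10.03, 9.73 and 10.11 (adjusted p = 0.364), and there the groups overlapped. The fall of Col4a5 thus rests on 1 of 2 probes of nearly equal brightness.

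Col4a1 read 13.56, 13.49 and 13.63 untreated and 13.47, 13.63 and 13.55 with DAC, a log2 change of −0.01 with a 95% interval from −0.22 to 0.19 (adjusted p = 0.93, limma). Col4a2 had a change of −0.03 with an interval from −0.25 to 0.19. With 75th percentile scaling both changes were above 0, at 0.18 and 0.16, and neither passed the test. The probes of Col4a1 and Col4a2 were brighter than 99.3% of all probes on every array. A difference of the size seen for Col4a6 lies outside both intervals.

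The promoters of the 2 detected pairs are shown because the drug lowers methylation at CG dinucleotides and because both chains of one pair were called and neither of the other; methylation itself was not measured. They are RefSeq windows of 300 bases on GRCm38.p6, from 250 bases before to 50 after the annotated start, written 5′ to 3′ on the strand of the gene with each CG in capitals. Col4a1 (chr8:11312777-11313076, minus strand) held 37 CG and Col4a2 (chr8:11312555-11312854, plus strand) 33. Their windows share 78 bases and their starts lie 21 bases apart. Col4a5 (chrX:141475169-141475468, plus strand) held 11 CG and Col4a6 (chrX:141474027-141474326, minus strand) 3, with starts 1343 bases apart and no shared base.
Col4a1: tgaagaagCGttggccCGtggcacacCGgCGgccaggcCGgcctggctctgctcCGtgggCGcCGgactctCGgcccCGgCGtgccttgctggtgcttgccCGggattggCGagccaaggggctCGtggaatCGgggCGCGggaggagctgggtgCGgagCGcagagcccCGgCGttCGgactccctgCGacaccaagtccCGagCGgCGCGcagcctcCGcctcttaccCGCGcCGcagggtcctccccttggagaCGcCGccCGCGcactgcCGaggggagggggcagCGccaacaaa
Col4a2: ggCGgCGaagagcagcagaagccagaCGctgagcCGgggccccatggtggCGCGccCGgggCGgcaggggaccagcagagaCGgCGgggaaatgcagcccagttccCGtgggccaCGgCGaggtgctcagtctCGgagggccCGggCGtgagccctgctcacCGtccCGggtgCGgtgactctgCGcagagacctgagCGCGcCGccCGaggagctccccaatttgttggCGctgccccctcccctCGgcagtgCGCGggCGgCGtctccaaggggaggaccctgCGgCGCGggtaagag
Col4a5: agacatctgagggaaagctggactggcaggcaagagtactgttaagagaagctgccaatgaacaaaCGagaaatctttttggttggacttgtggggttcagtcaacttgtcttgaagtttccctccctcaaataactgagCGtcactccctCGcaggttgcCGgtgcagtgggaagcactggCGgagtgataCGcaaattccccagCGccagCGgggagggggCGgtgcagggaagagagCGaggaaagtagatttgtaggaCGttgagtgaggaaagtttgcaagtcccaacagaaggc
Col4a6: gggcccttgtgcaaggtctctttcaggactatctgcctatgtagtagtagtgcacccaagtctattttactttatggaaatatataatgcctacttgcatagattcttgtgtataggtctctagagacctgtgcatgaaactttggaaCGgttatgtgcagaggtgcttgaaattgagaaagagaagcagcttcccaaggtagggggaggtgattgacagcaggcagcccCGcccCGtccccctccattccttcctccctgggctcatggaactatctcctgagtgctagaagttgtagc
The windows of the uncalled pair held more CG than those of the pair that fell, a description of 2 pairs that carries no test.

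Of 5 tested FACIT chains, 2 rose and 1 fell; over all genes 14.8% were called higher and 14.6% lower. Col9a3, a chain of type IX collagen, which coats cartilage fibrils, read 5.60, 5.59 and 5.29 untreated and 6.74, 6.49 and 6.90 with DAC. It was 2.32-fold higher (log2 change 1.21 ± 0.12 SE, adjusted p = 3.71e-06, limma), with every DAC array above every untreated one. The other chains of type IX, Col9a1 and Col9a2, the partners of its helix, were detected on no array. Another probe of Col9a3 was at background on all 6 arrays. Col9a3 has no promoter window in the table used here.

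Col20a1, a lesser-known FACIT chain, read 5.45, 4.99 and 4.92 untreated and 5.87, 6.19 and 5.55 with DAC, 1.68-fold higher (log2 change 0.75 ± 0.16 SE, adjusted p = 0.00264, limma). The groups nearly met, at untreated replicate 1 and DAC replicate 3. Its call ended when dim probes were kept in the fit (adjusted p = 0.0697). Col12a1, which links type I fibrils to their surroundings and is made by fibroblasts under load, moved the other way, from 11.63, 11.51 and 11.52 to 10.96, 11.04 and 10.94. It was 1.49-fold lower (log2 change −0.58 ± 0.10 SE, adjusted p = 0.000383, limma), and its other detected probe gave −0.63 (adjusted p = 0.000346 over all probes). Col14a1 and Col16a1, FACIT chains of skin and other connective tissue, had log2 changes of −0.16 and 0.10, with adjusted p-values of 0.308 and 0.588. Without normalization Col14a1 was called lower (−0.35, adjusted p = 0.049, limma). The untested FACIT chains Col19a1 and Col22a1 (called only where dim probes were kept) were detected on no array.

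Of 8 tested chains of the remaining types, 3 rose and 2 fell (14.8% of all genes were called higher and 14.6% lower). Type VIII collagen, the lattice of the cornea and of vessel walls, was split between its own chains. Col8a2 read 6.63, 6.77 and 6.83 untreated and 5.40, 5.73 and 5.44 with DAC, 2.33-fold lower (log2 change −1.22 ± 0.11 SE, adjusted p = 1.22e-06, limma). Col8a1 read 10.29, 10.44 and 9.96 untreated and 10.51, 10.73 and 10.80 with DAC, 1.37-fold higher (log2 change 0.45 ± 0.13 SE, adjusted p = 0.0157, limma). Neither gene's groups overlapped, though untreated replicate 2 and DAC replicate 1 nearly met for Col8a1. A second probe of Col8a1 rose further, from 9.05, 8.75 and 8.47 to 9.73, 9.44 and 9.84 (log2 change 0.91, adjusted p = 0.000351 over all probes). The call on the brighter probe ended without DAC replicate 3 (log2 change 0.39, adjusted p = 0.0698), without untreated replicate 3 (0.32, adjusted p = 0.0773) and with dim probes kept (adjusted p = 0.106).

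The promoter windows of the type VIII genes are shown because their changes had opposite signs. They again come from RefSeq on GRCm38.p6, with each CG in capitals. Col8a1 (chr16:57754688-57754987, minus strand), which rose, held 12 CG, and Col8a2 (chr4:126286544-126286843, plus strand), which fell, held 32.
Col8a1: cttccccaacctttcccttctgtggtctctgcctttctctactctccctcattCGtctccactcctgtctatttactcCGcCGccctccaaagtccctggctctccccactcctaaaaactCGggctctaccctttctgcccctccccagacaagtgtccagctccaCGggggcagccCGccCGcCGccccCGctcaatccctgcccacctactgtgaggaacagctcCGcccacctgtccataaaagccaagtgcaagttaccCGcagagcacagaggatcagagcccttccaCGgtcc
Col8a2: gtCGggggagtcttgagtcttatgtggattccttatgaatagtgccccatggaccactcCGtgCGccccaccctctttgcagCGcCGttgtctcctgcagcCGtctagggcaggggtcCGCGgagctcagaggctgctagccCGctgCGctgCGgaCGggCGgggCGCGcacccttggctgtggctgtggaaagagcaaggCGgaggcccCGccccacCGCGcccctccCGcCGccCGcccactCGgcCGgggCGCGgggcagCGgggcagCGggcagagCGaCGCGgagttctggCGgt
Here the gene with more CG was the one that fell, the opposite order to the type IV pairs.

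Col18a1, a basement membrane multiplexin whose C-terminal fragment is endostatin, an inhibitor of vessel growth, read 9.04, 9.01 and 8.83 untreated and 9.71, 9.73 and 9.66 with DAC. It was 1.67-fold higher (log2 change 0.74 ± 0.10 SE, adjusted p = 5.60e-05, limma), and a dimmer probe rose as well (log2 change 0.49, adjusted p = 0.0176 over all probes). The other multiplexin, Col15a1, varied widely between plates, at 6.62, 7.07 and 7.31 untreated and 6.87, 7.40 and 6.80 with DAC, and its change of 0.02 has an interval from −0.35 to 0.39 (−0.15 without normalization). Col7a1, the anchoring fibril that ties basement membrane to the dermis, read 6.93, 7.19 and 6.84 untreated and 7.25, 7.37 and 7.71 with DAC, 1.37-fold higher (log2 change 0.46 ± 0.13 SE, adjusted p = 0.0164, limma). Its groups nearly met, and the call ended without DAC replicate 3 (0.32, adjusted p = 0.0899), without untreated replicate 3 (0.38, adjusted p = 0.07), with dim probes kept (adjusted p = 0.114) and without normalization (0.29, adjusted p = 0.119).

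Type VI collagen, the beaded filament that all 3 of its detected chains build together, changed in 1 chain. Col6a1 read 12.31, 12.20 and 12.32 untreated and 11.78, 11.95 and 11.95 with DAC, 1.30-fold lower (log2 change −0.38 ± 0.10 SE, adjusted p = 0.00929, limma). The call ended without DAC replicate 1 (log2 change −0.32, adjusted p = 0.0513) and with 75th percentile scaling (−0.19, adjusted p = 0.169). Of its other probes, a bright one did not pass the test (log2 change −0.15, adjusted p = 0.383) and a dim one was lower (−0.77, adjusted p = 0.0173), both over all probes. Col6a2 and Col6a3 had log2 changes of −0.24 (interval −0.53 to 0.04) and 0.22 (interval −0.01 to 0.46). Col6a3 was called higher with 75th percentile scaling (0.43, adjusted p = 0.00605) and without untreated replicate 1 (0.34, adjusted p = 0.0407). Its dimmest kept probe, detected on 3 DAC arrays and 0 untreated ones, was at least 1.29-fold higher (log2 change 0.55, adjusted p = 0.00307 over all probes). That probe was kept only through its DAC arrays, so this p is no support for a rise. The remaining probe of Col6a3 stood at −0.03. The transmembrane collagens Col13a1, Col23a1 and Col25a1, the growth plate chain Col10a1 and Col28a1 were detected on no array, and Col17a1, the hemidesmosome collagen of epithelia, on 1 DAC array.

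**Figure D3:**
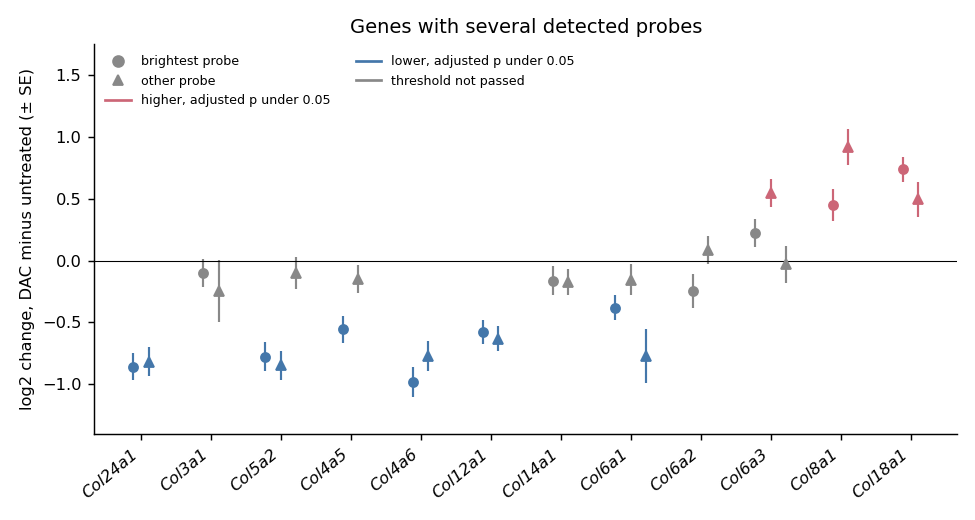
Log2 change (± SE) of each detected probe of the 12 collagen genes with several, from the fit across 16883 probes; circles are the brightest probe of a gene and triangles its other probes, red and blue mark probes called higher and lower, grey those not called. No gene had probes called in opposite directions; in Col4a5, Col5a2, Col6a1 and Col6a3 called and uncalled probes stand side by side.

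Counted by probe, 13 of the 40 kept collagen probes fell and 8 rose, beside 14.5% and 13.1% of all kept probes. The rises include the dimmest Col6a3 probe, kept only through its DAC arrays. The falls include the Col24a1 probes, kept only through their untreated arrays. They also include the Col11a1 probe and the dim Col6a1 probe, whose DAC arrays alone would not have met the filter. For 12 genes with several kept probes, no probe was called against another. A bead probe reads 1 stretch of a transcript, and where called and uncalled probes of a gene stood side by side, their positions in the transcript were not known here. The collagen probes rested on 19 to 74 beads per array (median 43).

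The balance between 2 chains of a collagen type was compared on each array, as the log2 difference between the 2 genes' brightest probes. For Col8a1 minus Col8a2 this difference was 3.66, 3.68 and 3.13 on the untreated arrays and 5.11, 5.00 and 5.36 on the DAC arrays. It shifted by 1.67, a 3.18-fold change in their ratio. The size of this shift depended on the background step: without background correction Col8a1 changed by 0.44 and Col8a2 by −0.79. Col5a1 minus Col5a2 went from 4.61, 4.35 and 4.70 to 5.46, 5.52 and 5.30, a shift of 0.87, or 1.83-fold. Both sets of arrays stood apart without overlap.

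In type VI, Col6a1 minus Col6a3 went from −0.76, −0.55 and −0.47 to −1.36, −1.07 and −1.17, a shift of −0.61. Col4a5 minus Col4a6 shifted by 0.42, as Col4a6 fell further than Col4a5. For the other 3 of the 7 pairs compared the groups overlapped: Col4a1 minus Col4a2 shifted by 0.01, Col6a1 minus Col6a2 by −0.14 and Col1a1 minus Col1a2 by −0.18. The exact permutation test (two-sided, 3 arrays against 3) gave p = 0.1 for each of the 4 pairs without overlap, the smallest this design allows, and 0.5 to 0.7 for the rest. Adjusted over the 7 pairs, the smallest p was 0.175, so no shift could pass 0.05 in this test.

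**Figure D4:**
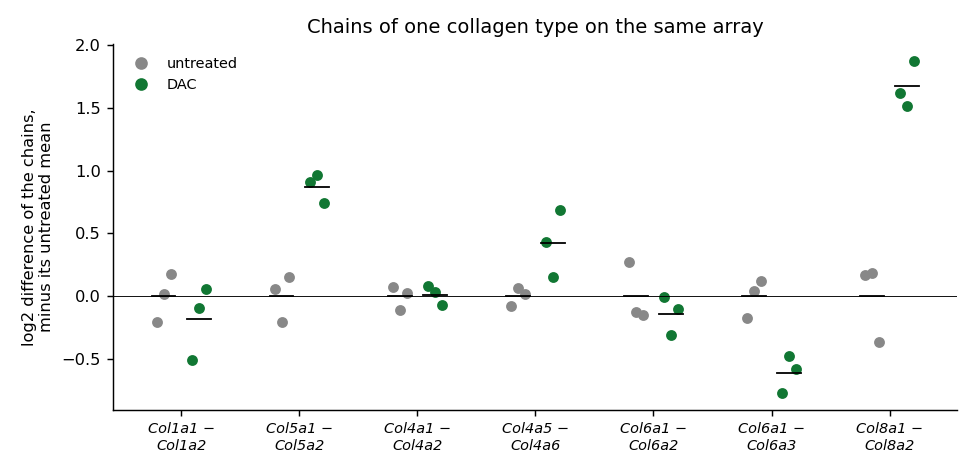
Log2 difference between 2 chains of a collagen type on the same array, minus its untreated mean (y axis), for the 7 pairs; points are arrays (untreated grey, DAC green) and lines group means. Col8a1 against Col8a2 shifted by 1.67 and Col5a1 against Col5a2 by 0.87, while the groups overlap for Col4a1 against Col4a2.

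Neighbouring collagen genes were also set side by side. With no protein-coding gene between them in the RefSeq gene table of GRCm38.p6, Col3a1 and Col5a2 on chromosome 1 had log2 changes of −0.10 and −0.78, and only Col5a2 was called. Col6a1 and Col6a2 on chromosome 10 had −0.38 and −0.24, with Col6a1 called, and Col4a5 and Col4a6 were both called lower. For Col6a1 and Col6a2 the within-array difference did not separate the groups (exact permutation p = 0.6), and the difference between Col3a1 and Col5a2 was not tested.

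The number of CG in each promoter window is given as a description, with no test. Of 32851 RefSeq promoter windows, 94.6% held at least 1 CG (a motif that reads the same on both strands), with a median of 7 and quartiles of 3 and 20. Windows were found for 32 of the 40 collagen genes. Windows of 4 of the 5 genes that rose held 1 to 16 CG (median 12), those of 6 of the 8 that fell 3 to 32 (median 7.5), and those of 10 of the 12 uncalled genes 0 to 37 (median 16). Col20a1, which rose, held 1 CG, and Col8a2, which fell, held 32. These ranges overlap, and a count of CG says nothing of whether they were methylated.

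Of 56 tested genes that fold, export, trim, crosslink, bind or cut collagen, in 6 lists, 7 rose and 8 fell, with a median log2 change of 0.00568. Over all genes 14.8% were called higher and 14.6% lower, shares near those of the lists. With 75th percentile scaling 13 rose and 4 fell, while 20.3% of all genes were called higher and 11.7% lower. Among 18 tested genes of folding and modification, 3 rose and 1 fell, against the same 14.8% and 14.6% of all genes. P4ha2, a prolyl 4-hydroxylase subunit that stabilises the helix, rose 1.34-fold (adjusted p = 0.00522), Plod3, a lysyl hydroxylase, 1.24-fold and Ppib, a collagen prolyl isomerase, 1.24-fold. The kept probes of P4ha2 ranged from 0.18 to 0.42 in log2 change. Plod2, the lysyl hydroxylase of the telopeptides, was 1.37-fold lower (adjusted p = 0.0115). Serpinh1, the collagen chaperone HSP47, had a log2 change of −0.11 (adjusted p = 0.43). None of the 8 tested secretion genes passed the test.

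Among 7 tested genes of procollagen processing and crosslinking, Loxl4, a lysyl oxidase that crosslinks collagen, rose from 7.62 ± 0.24 to 8.52 ± 0.18 (SD, n = 3; 1.87-fold, limma adjusted p = 0.000101) and the others did not pass the test. Of 10 tested fibril-regulating genes, 2 rose and 3 fell (14.8% of all genes were called higher and 14.6% lower). Lum (lumican), a proteoglycan that spaces fibrils, was 1.67-fold lower (adjusted p = 0.000207) and Fn1 (fibronectin) 1.26-fold, while Fmod (fibromodulin) rose 1.55-fold and Dpt (dermatopontin) 1.56-fold. The 4 probes of Fn1 ranged from −0.996 to −0.03.

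Of 8 tested collagen receptor and uptake genes, 1 rose and 2 fell, and of 5 collagenase genes none rose and 2 fell (14.8% of all genes were called higher and 14.6% lower). The collagen receptor kinases moved apart, with Ddr1 1.76-fold lower (adjusted p = 2.28e-05) and Ddr2 1.25-fold higher (adjusted p = 0.0417). The 2 kept probes of Ddr1 had log2 changes of −0.82 and −0.24. Mrc2, which takes collagen up for breakdown, was 1.46-fold lower (adjusted p = 0.0257). Of the collagenase genes, Mmp2, which cuts type IV and denatured collagen, was 1.39-fold lower (adjusted p = 0.00325) and Mmp16 1.21-fold (adjusted p = 0.0495). These adjusted p-values come from the same limma fit across 11518 genes.

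**Figure D5:**
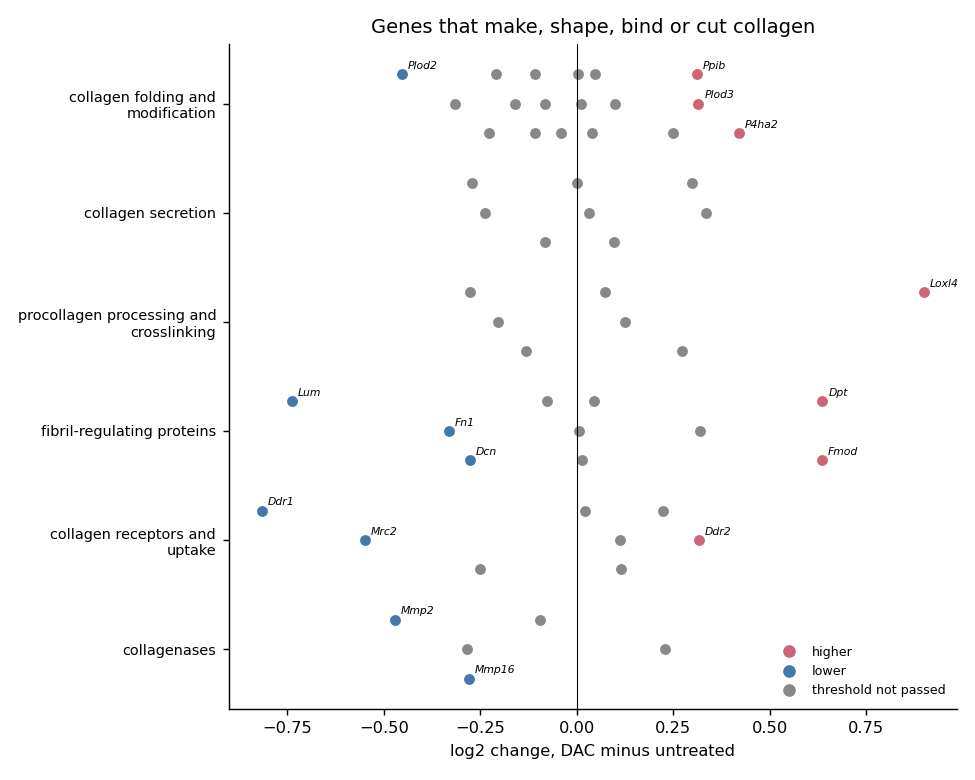
Log2 change (x axis, DAC minus untreated) of the 56 tested genes that make, shape, bind or cut collagen, in 6 lists; the vertical spread within a list only separates the points. Named red points rose (7 genes) and named blue points fell (8 genes) at an adjusted p under 0.05, grey points did not pass.

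The markers of cell type moved beside these genes. Of 10 fibroblast markers 9 were tested; their summed intensity was 34888 to 35460 untreated and 33648 to 36823 with DAC, with Lum and Dcn lower, S100a4 higher, and Fap, a marker of tumour fibroblasts, detected on 1 array. All 8 endothelial and all 5 Schwann cell markers were detected on no array. Of 8 epithelial markers 5 were tested, with Krt19 2.30-fold lower, Krt7 1.72-fold higher, sums of 1382 to 1570 and 1273 to 1467, and Epcam, Cdh1 and Cldn4 on no array. Of 10 leukocyte markers 7 were tested and 6 rose, beside 14.8% of all genes; Cd53 and Csf1r among these were detected on the DAC arrays alone and were tested only through them. The sums went from of 689 to 742 untreated to 1263 to 1281 with DAC, and Ptprc, Itgam and Tyrobp were on no array. Of 6 pericyte markers 3 were tested and Cspg4 and Mcam rose (sums 547 to 598 and 1060 to 1195), with Rgs5, Kcnj8 and Abcc9 on no array. Of the cartilage and bone markers, Sox9, a regulator of cartilage collagen genes in mouse, rose 2.12-fold (sums 402 to 408 and 799 to 1004), and Acan, Ibsp, Runx2, Sp7 and Matn3 were on no array. The part of these markers in the collagen changes was not tested, and in such bulk arrays fewer cells of a type and less RNA per cell cannot be told apart.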

How the data were processed

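The series measured 6 Illumina bead arrays of total RNA, 3 of untreated and 3 of DAC-treated plates, with columns assigned by the sample names in the labels. Per the file headers, the deposited table listed for each probe and array the average bead intensity (linear, and by its values still raw), a detection p-value, a bead standard error and a bead number. The scanner software is not given in the sources used here. Between 16205 and 17180 of 45281 probes were detected per array.

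These intensities were background-corrected in limma 3.58.1 (R 4.3.3) with normexp, whose parameters came from the detection p-values, then raised by an offset of 16, quantile normalized and put on a log2 scale. The filter kept 16883 probes, those with 3 or more arrays at a detection p under 0.01. Each gene was read by its brightest probe. Target names were updated through the RefSeq gene table of GRCm38.p6 (36670 probes, 81.0%). Groups were compared with lmFit and eBayes, adjusted by Benjamini-Hochberg over all 11518 genes, or over all kept probes where stated. Bounds set the brighter group's mean against the lowest detected signal of each array of the dimmer group, or the probe's own signal where higher. The procedure was also run on simulated intensities, with the outcome not given here. Every collagen chain on the array is accounted for, and up to 4 called genes of each pathway list are named. The collagen classes, members and lists were chosen with earlier results of these data known. A second deposited value table, whose probes carry other identifiers, was not used here.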

Additional observations from a re-analysis of the deposited data

How the results depend on the processing

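The processing was varied in 15 ways, and no called collagen gene changed direction in any of them. Of the 13 called genes, 9 stayed on their side of the threshold wherever they were tested, and Col6a1, Col7a1, Col8a1 and Col20a1 lost it under the settings named beside them. Without between-array normalization 977 genes were called higher and 2711 lower. The collagen genes called higher numbered 3 of 40 without the filter on dim probes, beside 5.3% of all genes. They were Col9a3, Col18a1 and the undetected Col22a1. Among genes that make and handle collagen, 13 rose and 4 fell with 75th percentile scaling, beside 20.3% and 11.7% of all genes. Collagen genes detected only with DAC numbered 1 at a detection p under 0.05, and those detected only without DAC numbered 0 at under 0.001 against over 0.1. The causes of these shifts were not tested. Leaving out 1 array at a time gave 1227 to 1515 genes higher and 1300 to 1613 lower over all genes, 3 to 6 and 7 to 9 collagen genes, 5 to 8 and 10 to 14 collagen probes, 4 to 9 and 5 to 7 collagen-handling genes, and 0 to 1 and 1 to 1 collagen genes detected only with or without DAC. Changes of sign were found for 4 uncalled genes. Col4a1 lay at 0.18 with 75th percentile scaling, at 0.00387 without normalization and from −0.055 to 0.024 with 1 array left out. Col4a2 lay at 0.16 with 75th percentile scaling and from −0.071 to 0.046 with 1 array left out. Col15a1 lay at −0.15 without normalization and from −0.17 to 0.18 with 1 array left out, and Col16a1 from −0.035 to 0.19. With the replicate number as a block, 5 collagen genes were higher and 9 lower, Col1a1 being added (adjusted p = 0.0161, limma). Over all genes this block gave 2006 higher and 1977 lower, beside 1708 and 1686 in the main fit. The deviations of same-numbered plates correlated at 0.311, 0.309 and −0.03, and those of differently numbered plates at −0.394 to 0.161. The numbers were not taken as pairs in the main fit, and whether same-numbered plates share a source of spread was not tested. Dim probes limit what can be read: 42 of the 88 collagen probes were detected on no array. The deposited processed values could not be used as an alternative, since their probes could not be named.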
